A study of Arabidopsis thaliana with 12 samples.

Results

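The INFLORESCENCE DEFICIENT IN ABSCISSION (IDA) family of small secreted peptides and its HAESA receptors were followed in Arabidopsis seedlings during the first minutes after external H2O2 was added. The members were named by locus, namely the peptide genes IDA (AT1G68765), IDL1 (AT3G25655), IDL2 (AT5G64667), IDL3 (AT5G09805), IDL6 (AT5G05300) and IDL7 (AT3G10930) and the receptor genes HAE (AT4G28490), HSL1 (AT1G28440) and HSL2 (AT5G65710). Of these 9 genes, 7 were among the 20972 genes of the expression table, and IDL1 and IDL6 were not analysed here. The family was chosen by the measured rise of IDL7, which is among the strongest in these 12 libraries, so the values of IDL7 are a description and carry no test. The remaining members were tested where their levels allowed.

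In the pathway as it is known from Arabidopsis, the IDA precursor is cut and trimmed by subtilase proteases, and the short peptide that results is bound at the cell surface by the leucine-rich repeat receptor kinases HAE and HSL2 together with SERK co-receptors. The signal then passes through the kinases MKK4 and MKK5 to MPK3 and MPK6, and the best known outcome is the loosening of cell walls when petals and other floral organs are shed and when lateral roots emerge. HSL1 is a close relative of HAE and binds related peptides, and IDL6 and IDL7 are the stress-inducible peptides of the family.

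RNA sequencing was performed on whole seedlings of wild-type Arabidopsis (Col), grown for 5 days in shaken liquid 0.5 x MS medium under constant light. Seedlings sampled 2, 4 or 8 min after 1 mM H2O2 was added were compared with seedlings given distilled water and sampled at 0 min, with 3 libraries at each time point, each from a pool of many seedlings. The experiment was repeated 3 times, and whether the libraries of one time point came from separate cultures is not stated beyond that, so the p-values measure the spread between these libraries. Water was used only at 0 min, so each comparison holds the effect of H2O2 together with that of the minutes after liquid was added, and these cannot be told apart.

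The 12 libraries held between 13558388 and 26618274 reads on the listed genes, with a median of 16853679. The leaf markers RBCS1A and LHCB1.3 and the root markers PYK10 and COBL9 were all listed, whereas the floral organ identity genes AP3 and AG were not among the listed genes. Transcripts of the seed proteins CRA1 and OLE1 were present in every library at uneven levels. The summed level of these seed transcripts ran from 23700 to 26200 normalized counts at 0 min, from 17800 to 32200 at 2 min, from 3110 to 31400 at 4 min and from 9850 to 44800 at 8 min. The library lowest in CRA1 was 4 min replicate 2 (2965 normalized counts) and the highest was 8 min replicate 2 (42930). The latter was also the most deeply sequenced (26618274 reads) and the lowest in RBCS1A (134800 normalized counts), so its CRA1 level is not its only difference. The results below are also given without these libraries where that matters. In whole seedlings, a change in the number of cells of one type cannot be told apart from a change in RNA per cell.

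The sequence that defines the peptides is shown first, because the mature ligand is cut from the end of a longer precursor and only that end is shared. Each line gives 30 bases read from the TAIR10.1 genome on the coding strand, with the 12 bases that code for the core of the peptide (serine, glycine or alanine, proline, serine) in capitals and 9 bases on either side in lower case.
IDA: attcctcctTCTGCTCCTTCTaagagacac
IDL1: gtaccacctTCGGGACCTTCCatgagacat
IDL2: gttccagctTCTGGTCCCTCCagaaaacac
IDL3: gttccaactTCTGGTCCTTCCagaaaacat
IDL6: gttccggcgTCTGGACCCAGCaagagaatc
IDL7: cgtccggggTCTGGACCCAGCaagaaaact

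In this window IDL7 was identical to IDL6 at 24 of 30 bases, including all 12 bases of the core. It was identical to IDL2 at 17 bases, to IDL3 at 16, to IDL1 at 15 and to IDA at 14. The core lies close to the end of the precursor in each gene. It is followed by 8 more codons in IDL7 and in IDL6, by 12 in IDA and IDL1, by 13 in IDL3 and by 16 in IDL2. A match to the same core within the last 40 codons of the longest annotated coding sequence was found in 67 of 27549 protein-coding genes (0.243%). The core alone therefore does not define the family. IDL7 is not counted among these genes, because its annotated coding sequence does not hold the core, and other unannotated frames were not searched.

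IDL7 is a single exon of 852 bases on the minus strand of chromosome 3 (3420081 to 3420932 in TAIR10.1), and the core shown above lies at 3420484 to 3420513. The coding sequence that RefSeq annotates for AT3G10930 has 101 codons and does not hold the core. The core lies in another open reading frame of the same transcript, which has 97 codons and starts upstream of the annotated one. The counts cover the whole transcript and do not tell which frame is translated. No other annotated gene overlaps IDL7, and none of its 50-base stretches occurs elsewhere in the annotated transcripts, so its reads are not shared with a near-identical copy.

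The steady-state level of the IDL7 transcript was enhanced at each sampled time, and each step brought a higher mean. At 0 min the 3 libraries had 29.4, 23.6 and 23.6 normalized counts (reads divided by a scaling factor for the depth of each library). At 2 min of H2O2 they had 61.8, 42.4 and 52.2, at 4 min 183, 91.1 and 117, and at 8 min 262, 211 and 161. All 3 libraries at 2, 4 and 8 min were above all 3 libraries at 0 min, and the 4 min libraries were above all of those at 2 min, whereas the 4 and 8 min libraries overlapped. The underlying reads numbered 21 to 30 at 0 min, 33 to 60 at 2 min, 85 to 163 at 4 min and 164 to 329 at 8 min, so the starting level of IDL7 is the least precisely counted part of each change.

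Averaged by time point, IDL7 had 25.5 ± 3.34 normalized counts at 0 min and 52.1 ± 9.71 after 2 min of H2O2, followed by 130 ± 47.4 after 4 min and 211 ± 50.7 after 8 min (SD, n = 3 at each time). Relative to 0 min, these means were 2.04 times as high after 2 min, 5.11 times after 4 min and 8.28 times after 8 min. On the scale of log2(normalized count + 1), the change from 0 min was 0.99, 2.26 and 2.98 at 2, 4 and 8 min. Among the 19485 genes with a mean of at least 10 normalized counts, IDL7 ranked 42nd in its change at 2 min, 6th at 4 min and 5th at 8 min. These ranks describe the choice of the gene. All 3 libraries lay above those of 0 min for 9.83% of all genes tested after 2 min, for 10.5% after 4 min and for 8.56% after 8 min, and nothing about IDL7 is read from that background.

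The libraries of one time point differed in how far IDL7 had risen. At 4 min replicate 1 was 6.23 times its same-numbered library at 0 min, replicate 3 was 4.96 times and replicate 2 was 3.86 times. At 8 min these ratios were 8.92, 8.96 and 6.81 for replicates 1, 2 and 3, and at 2 min they were 2.10, 1.80 and 2.21. The replicate numbers are used here only as names, since libraries of the same number did not deviate together. Without 4 min replicate 2 and 8 min replicate 2, the libraries with the lowest and highest CRA1, the log2 change of IDL7 was 0.99, 2.48 and 2.97 at 2, 4 and 8 min, so the rise was as large without them.

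**Figure D1:**
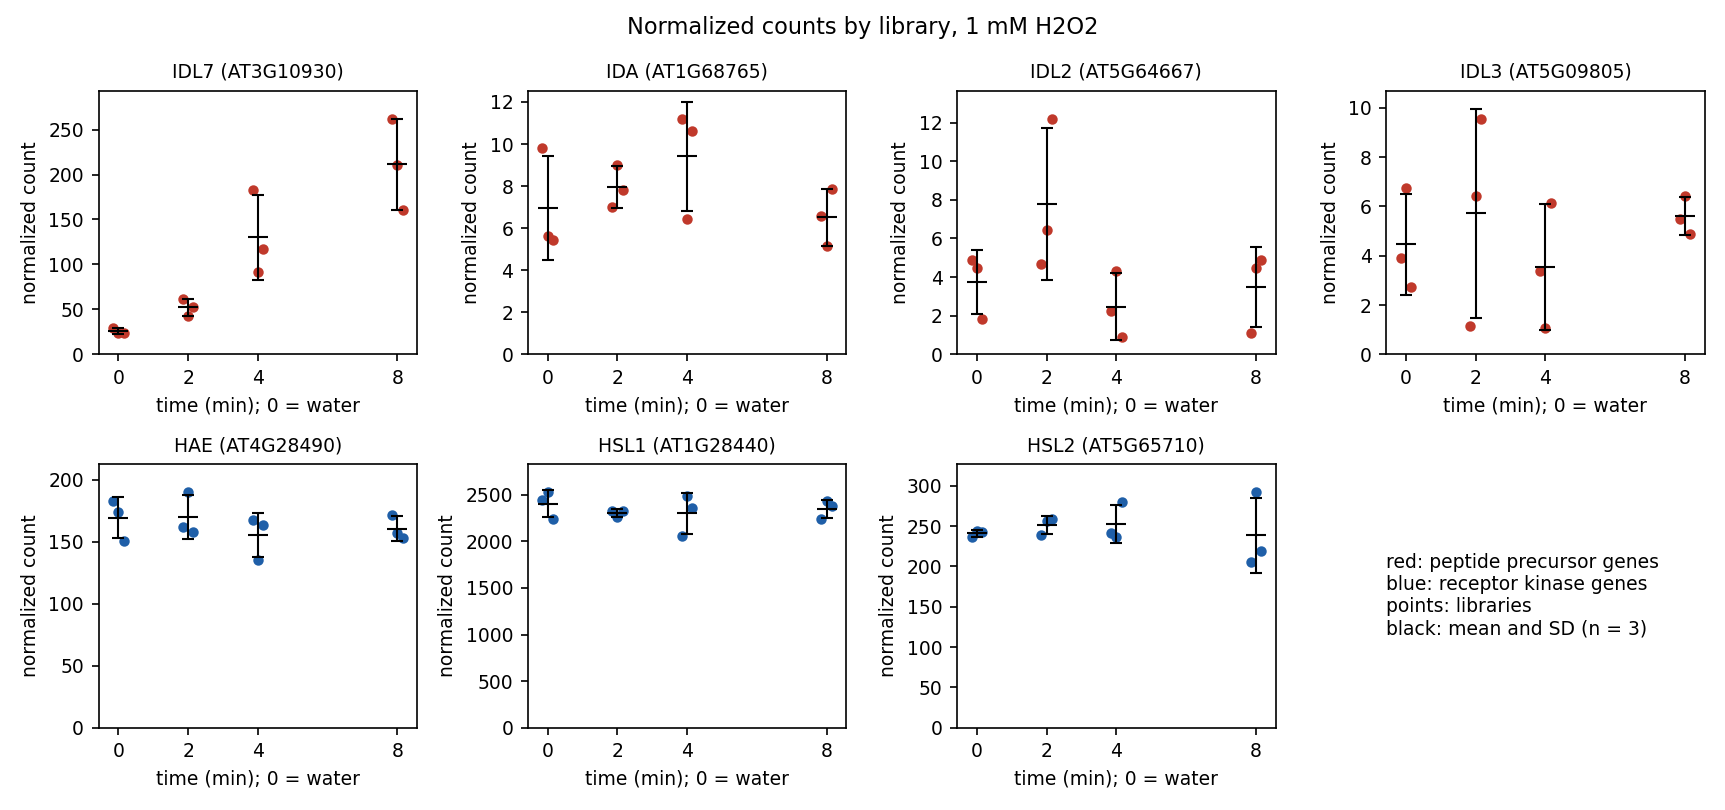
Normalized counts (vertical axes, each from 0) of the 7 listed members in each of the 12 libraries against the time in 1 mM H2O2 in min (0 is water); points are libraries, and the black line and bars give the mean and SD (n = 3). IDL7 climbs to between 161 and 262 normalized counts at 8 min, against 23.6 to 29.4 at 0 min, while in the other 6 panels the libraries at 2, 4 and 8 min overlap those at 0 min.

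The genes next to IDL7 on the chromosome did not pass the test at any time. The neighbour at lower coordinates, MSD1 (AT3G10920, a mitochondrial manganese superoxide dismutase), lies on the opposite strand 188 bases away, and its log2 change was 0.01, -0.04 and -0.07 at 2, 4 and 8 min (limma adjusted p = 0.971, 0.773 and 0.611). LSF2 (AT3G10940, a phosphatase of starch breakdown), which lies 1101 bases away on the upstream side of IDL7, had log2 changes of -0.09, -0.01 and -0.07, which did not pass either. The difference between these genes and IDL7 was not tested.

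The other peptide genes of the family were at the lower limit of what these libraries can count. IDA, the founding member that drives floral organ shedding, had 9.79, 5.61 and 5.45 normalized counts at 0 min. It had 7.0, 9.0 and 7.82 at 2 min, 11.2, 6.43 and 10.6 at 4 min, and 6.58, 5.14 and 7.84 at 8 min. The libraries of every time point overlapped those at 0 min, and the log2 changes of IDA were 0.21, 0.40 and -0.05 at 2, 4 and 8 min.

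IDL2 and IDL3, close relatives of IDA, were lower still and uneven between libraries. IDL2 had 4.90, 4.49 and 1.82 normalized counts at 0 min, 4.67, 6.43 and 12.2 at 2 min, 2.25, 4.29 and 0.881 at 4 min, and 1.10, 4.49 and 4.90 at 8 min. IDL3 had 3.92, 6.74 and 2.72 at 0 min, 1.17, 6.43 and 9.56 at 2 min, 3.37, 1.07 and 6.16 at 4 min, and 5.49, 6.42 and 4.90 at 8 min. In both genes the time points overlapped 0 min throughout, and the spread within one time point was as wide as that between times, with 1 to 14 reads behind each value of IDL2 and 1 to 11 behind each value of IDL3.

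These 3 peptide genes fell below the mean of 10 normalized counts required for the test. When that requirement was dropped, none of them passed at any time (limma adjusted p between 0.572 and 0.974). The log2 changes at 2, 4 and 8 min were 0.87, -0.50 and -0.14 for IDL2 and 0.09, -0.38 and 0.33 for IDL3. The 95% interval at 2 min was -0.50 to 0.91 for IDA, -0.30 to 2.03 for IDL2 and -1.17 to 1.34 for IDL3. At 4 min it was -0.31 to 1.10, -1.66 to 0.66 and -1.63 to 0.88 for these genes in the same order. At 8 min it was -0.76 to 0.65 for IDA, -1.31 to 1.02 for IDL2 and -0.92 to 1.59 for IDL3. Changes within these bounds therefore remain possible for each gene at each time. Because 1 was added before the log, the log2 values understate any change of genes this low.

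The receptor genes were all well measured, and none of the 3 passed the test at any time. With limma, 0 of 3 receptor genes passed at 2, 4 and 8 min, where 0%, 0.811% and 1.34% of all 19485 genes tested passed, a background at which few calls would fall on any 3 genes. None of them had an unadjusted p under 0.05 either, by limma, DESeq2 or edgeR. Unadjusted, 12%, 15.6% and 13.7% of all genes tested did so by limma at 2, 4 and 8 min.

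HAE, the receptor first linked to floral organ shedding, had 183, 174 and 151 normalized counts at 0 min, 162, 190 and 158 at 2 min, 168, 135 and 164 at 4 min, and 172, 157 and 153 at 8 min. The time points overlapped 0 min in every case. The log2 change of HAE was 0.01 at 2 min (95% interval -0.26 to 0.27, limma adjusted p = 0.992), -0.12 at 4 min (-0.38 to 0.14, adjusted p = 0.668) and -0.07 at 8 min (-0.34 to 0.19, adjusted p = 0.845).

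HSL2, which acts alongside HAE in shedding, had 236, 244 and 243 normalized counts at 0 min, 239, 257 and 259 at 2 min, 241, 237 and 280 at 4 min, and 205, 292 and 219 at 8 min. The libraries at 8 min were the most spread (238.7 ± 46.8, SD, n = 3), with 1 library above and 2 below the whole range at 0 min, where they lay close together (241 ± 4.33). The log2 change of HSL2 was 0.06 at 2 min (95% interval -0.20 to 0.32, limma adjusted p = 0.889), 0.06 at 4 min (-0.20 to 0.33, adjusted p = 0.838) and -0.03 at 8 min (-0.29 to 0.23, adjusted p = 0.942). The high library at 8 min was replicate 2, which was also the highest in CRA1, and without it and 4 min replicate 2 the change at 8 min was -0.19 on the log2 scale. The part of the seed transcripts in that spread was not tested.

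HSL1, the most abundant of the receptors, had 2446, 2526 and 2240 normalized counts at 0 min, 2329, 2259 and 2324 at 2 min, 2057, 2485 and 2357 at 4 min, and 2238, 2432 and 2374 at 8 min. All time points overlapped 0 min, and the intervals of its changes were the narrowest of the 3 receptors. The log2 change of HSL1 was -0.06 at 2 min (95% interval -0.22 to 0.11, limma adjusted p = 0.813), -0.07 at 4 min (-0.23 to 0.10, adjusted p = 0.713) and -0.03 at 8 min (-0.20 to 0.13, adjusted p = 0.89). A p that misses the threshold does not show that a level stayed the same, and changes within these intervals remain possible for each receptor.

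To compare levels between genes, normalized counts were divided by the exonic length in kb. At 0 min HSL1 stood highest at 692 ± 42.5 per kb, followed by HSL2 at 74.6 ± 1.34, HAE at 45.6 ± 4.50 and IDL7 at 30 ± 3.92 (SD, n = 3). The libraries of these 4 genes did not overlap at 0 min. IDA at 8.04 ± 2.85 per kb, IDL3 at 6.0 ± 2.77 and IDL2 at 4.31 ± 1.93 followed, and neighbours in this order overlapped, IDA with IDL3 and IDL3 with IDL2.

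IDL7 moved upwards through that order. At 2 min it had 61.2 ± 11.4 normalized counts per kb (49.8 to 72.6), which overlapped HAE (42.6 to 51.3) and lay below HSL2 (74.1 to 80.2). At 4 min it reached 153 ± 55.6 per kb (107 to 215), above every library of HSL2 (73.3 to 86.7), and at 8 min it reached 248 ± 59.5 (189 to 308). HSL1 remained above it throughout, at 675 ± 28.6 per kb at 8 min. The order of the receptors among themselves was HSL1, HSL2 and HAE at all 4 time points, with no overlap between neighbours.

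**Figure D2:**
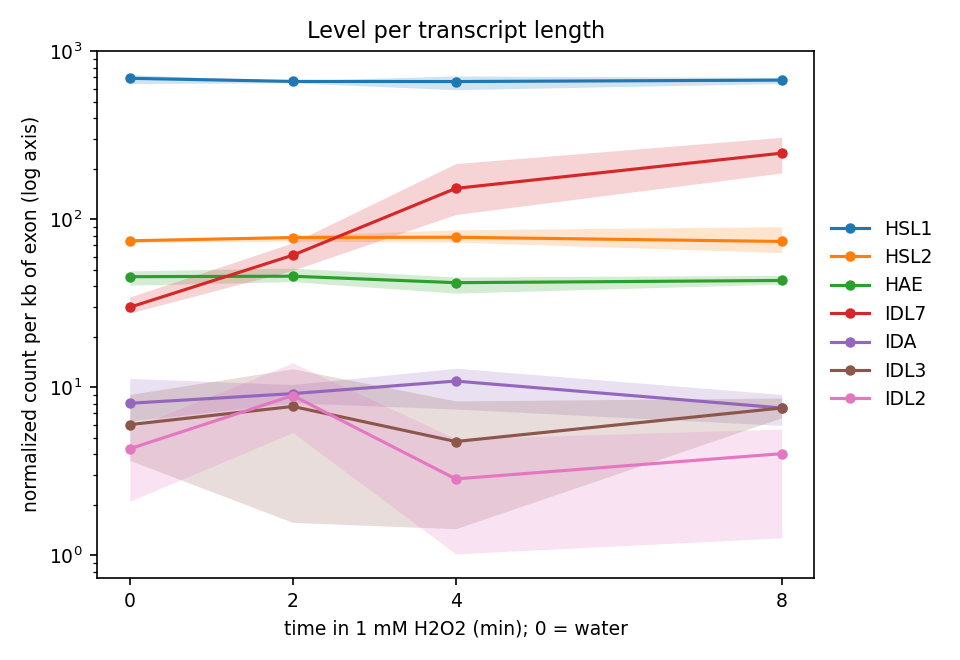
Mean normalized count per kb of exon (vertical log axis) for the 7 listed members against the time in 1 mM H2O2 in min (0 is water); lines join the means of 3 libraries and shaded bands run between the lowest and highest library. IDL7 starts below HAE and HSL2 at 30 per kb and ends above both at 248, while HSL1 stays above all others, at 692 at 0 min and 675 at 8 min.

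The remaining genes of the pathway were examined as a list of 26 partners, of which 23 were in the table and 21 had levels high enough to test. By limma 0 of 21 passed at 2 min, 0 at 4 min and 1 at 8 min (0%, 0.811% and 1.34% of all genes tested), and the gene that passed was higher at 8 min, as were 1.29% of all genes tested. The median log2 change of the 21 partners was -0.01, 0.04 and 0.09 at 2, 4 and 8 min, beside -0.00, -0.01 and -0.00 for all genes tested. With DESeq2 the list gave 2 genes at 2 min, both lower, none at 4 min and 3 at 8 min, all higher. In either direction DESeq2 called 0.726%, 2.6% and 2.32% of all genes it adjusted, with 0.331% lower at 2 min and 1.92% higher at 8 min. With edgeR the list gave 0, 0 and 1, beside 0%, 0.708% and 1.4% of all genes tested. The limma count at 8 min became 2 without 0 min replicate 2 (MKK4 added) or without 8 min replicate 2 (HSL3 added). It also became 2 without 4 min replicate 1 or 4 min replicate 2 (MPK3 added). Without 4 min replicate 2 and 8 min replicate 2 together it became 3. The share of all genes called in these fits is not given here, so nothing about the list is read from these counts.

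SOBIR1 (AT2G31880, EVERSHED), a receptor-like kinase that restrains floral organ shedding and takes part in immune signaling, was the partner that passed. It had 751, 564 and 617 normalized counts at 0 min, 757, 732 and 698 at 2 min, 773, 806 and 818 at 4 min, and 1265, 1130 and 937 at 8 min. All libraries at 4 and 8 min were above those at 0 min, and at 2 min the ranges overlapped. Its level at 8 min was 1111 ± 165, against 643.8 ± 96.7 at 0 min (SD, n = 3), a log2 change of 0.79 (SE 0.113, 95% interval 0.54 to 1.03, limma adjusted p = 0.00188). At 2 and 4 min the log2 changes were 0.19 and 0.32, which did not pass (adjusted p = 0.538 and 0.197). SOBIR1 overlaps AT2G31890 on the opposite strand over part of its length, and whether reads were counted by strand is not stated, so the share of its count that belongs to SOBIR1 is uncertain. AT2G31890 had log2 changes of 0.30, 0.24 and 0.20 at 2, 4 and 8 min, and none of these passed (limma adjusted p = 0.244, 0.217 and 0.342).

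MKK4 and MPK3, of the MAP kinase cascade downstream of the receptors, did not pass with limma in the main fit of all 12 libraries. Like the genes that DESeq2 called at 2 min, they were looked at more closely after their values were seen. MKK4, which activates MPK3 and MPK6, had 250, 265 and 276 normalized counts at 8 min, against 176, 218 and 188 at 0 min, with a log2 change of 0.44 (limma adjusted p = 0.0667, DESeq2 adjusted p = 0.0372). MPK3, a partner of high mean level, had 1913, 1847 and 1743 at 8 min, against 1411, 1454 and 1362 at 0 min, a log2 change of 0.38 (limma adjusted p = 0.0599, DESeq2 adjusted p = 0.00785). MPK3 passed by limma at 8 min without 4 min replicate 1 (adjusted p = 0.0298), without 4 min replicate 2 (0.0184) and without the 2 libraries at the extremes of CRA1 (0.0445), and MKK4 passed without 0 min replicate 2 (0.0363). Of the 22 alternatives, MPK3 passed at 8 min in 5 and MKK4 in 2. In both genes every 8 min library lay above every 0 min library, as it did for 8.56% of all genes tested. MKK4 shares part of its sequence with the neighbouring locus AT1G51670 and MPK3 is overlapped on the opposite strand by AT3G45645, so the count of MKK4 is uncertain however strand was treated, and that of MPK3 is uncertain if reads were counted without strand.

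A gene that cuts the peptide precursor and one that cuts the cell wall did not pass by limma in the fit of all time points together but lay below the 0 min libraries early on. SBT4.12, one of the subtilases that cut the IDA precursor, had log2 changes of -0.50, -0.36 and -0.22 at 2, 4 and 8 min (limma adjusted p = 0.221, 0.192 and 0.471). ADPG2, a polygalacturonase that loosens cell walls at shedding sites, had log2 changes of -0.52, -0.36 and -0.24 (limma adjusted p = 0.232, 0.25 and 0.49). Both had all 3 libraries at 2 and 4 min below those at 0 min, which 9.24% and 9.5% of all genes tested also did. SBT4.12 and ADPG2 were the 2 lower genes by DESeq2 at 2 min (adjusted p = 0.0492 and 0.0494). Both also passed by limma at 2 min when each time was fitted separately with 0 min (adjusted p = 0.0429 and 0.0475). The share of all genes called in the separate fits is not given here. Each of the 2 genes passed at 2 min in only 2 of the 22 alternatives, and in none of the 12 fits that left out 1 library. The co-receptor BAK1 and NEV, a regulator of membrane trafficking needed for shedding, had log2 changes of -0.06 and -0.09 at 8 min (limma adjusted p = 0.765 and 0.573).

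**Figure D3:**
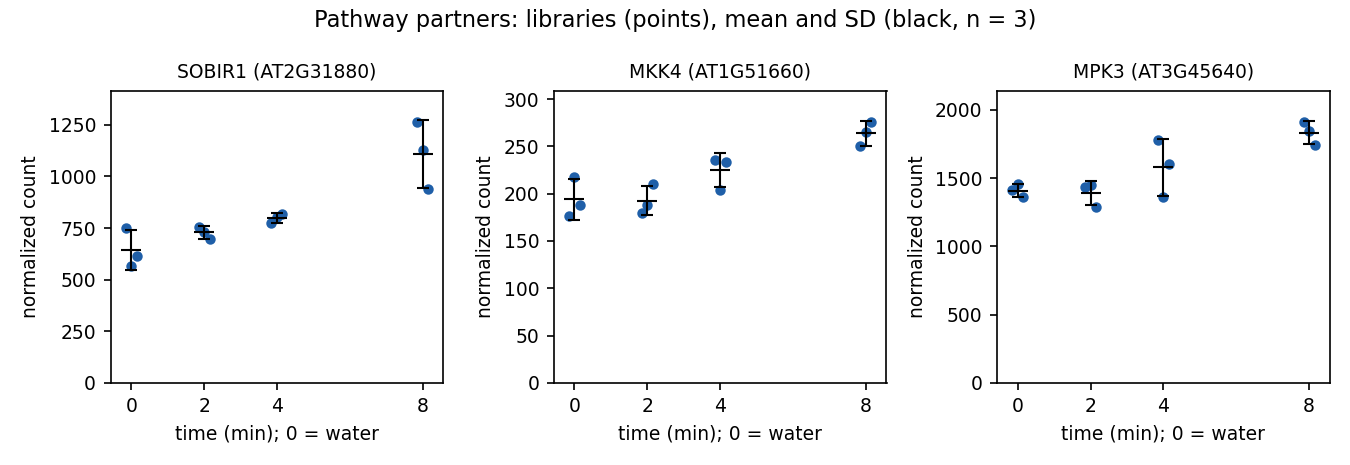
Normalized counts (vertical axes, each from 0) of SOBIR1, MKK4 and MPK3 in each of the 12 libraries against the time in 1 mM H2O2 in min (0 is water); points are libraries and black marks the mean and SD (n = 3). SOBIR1 averages 1111 at 8 min, against 643.8 at 0 min. MKK4 and MPK3 show smaller differences at 8 min that did not pass with limma in the main fit of all 12 libraries.

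Other families of signaling peptides and their receptors gave a second list, in which no gene passed. Of its 26 genes 25 were in the table and 22 were tested, and limma called 0 of 22 at 2, 4 and 8 min. At an unadjusted p under 0.05 limma had 4, 3 and 2 of them, and DESeq2 and edgeR, which also called none, had 4, 3 and 3 each. Over all 19485 genes tested the same was true of 12%, 15.6% and 13.7% by limma, of 1904, 2614 and 2308 genes by DESeq2 and of 2241, 2996 and 2704 genes by edgeR. The median log2 change of the list was 0.07, 0.14 and -0.01 at 2, 4 and 8 min. MIK2, the receptor of the SCOOP peptides, had log2 changes of 0.38, 0.21 and 0.13, FER, a receptor of RALF peptides, had -0.07, -0.05 and -0.04, and RLK7, the receptor of the PIP peptides, had 0.03, -0.00 and 0.02.

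PROPEP3, the precursor of a danger peptide sensed by PEPR1 and PEPR2, had 72.4, 14.8 and 53.9 normalized counts at 8 min, against 31.3, 22.5 and 13.6 at 0 min. Replicates 1 and 3 were above every 0 min library and replicate 2 was within their range. Its log2 change at 8 min was 0.84 (limma adjusted p = 0.446), and without 8 min replicate 2, the library highest in CRA1, it was 1.51 (adjusted p = 0.0309). The part of the seed transcripts in this difference was not tested, and PROPEP3 was singled out after its values were seen. The other tested precursors had log2 changes at 8 min of 0.08 (PROPEP1), -0.39 (PROPEP4), -0.38 (PROPEP5) and -0.07 (PROPEP6). PEPR1 had log2 changes of 0.00, 0.02 and 0.01 at 2, 4 and 8 min. PEPR2 had -1.06, -0.42 and -0.38, which did not pass (limma adjusted p = 0.229, 0.477 and 0.566). All 3 PEPR2 libraries lay below all 3 at 0 min at 2 and 4 min, as did 9.24% and 9.5% of all genes tested. They also did at 8 min, where that share is not given here. Each value of PEPR2 rests on 12 to 46 reads.

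**Figure D4:**
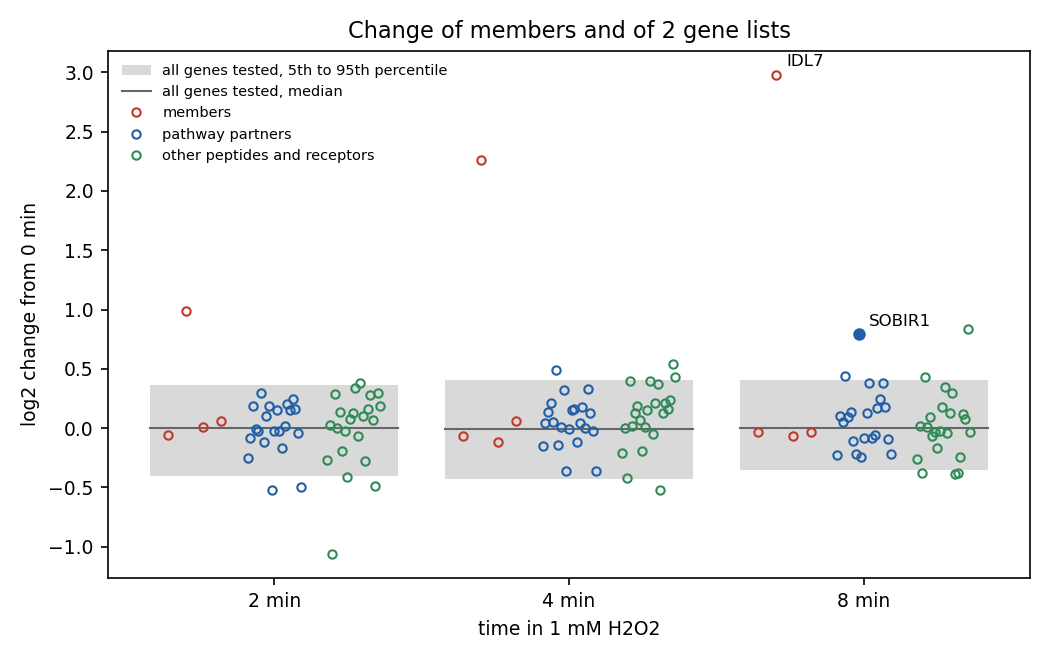
Log2 change from 0 min (vertical axis) at 2, 4 and 8 min of 1 mM H2O2 for the tested members and the 2 gene lists; each point is a gene, filled where it passed limma at an adjusted p of 0.05 (IDL7 is drawn open, without a test, as the highest red point), and the grey band runs from the 5th to the 95th percentile of all 19485 genes tested. IDL7 stands at 0.99, 2.26 and 2.98, above the 95th percentiles of 0.36, 0.41 and 0.41, and the receptors lie inside the band.

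The genes whose pattern was most like that of IDL7 were ranked by the Pearson correlation of log2(normalized count + 1) over the 12 libraries, among the 19485 genes tested. The 12 points share their libraries and fall into 4 time points, so r is given as a description. The closest was the zinc finger factor ZAT12 (RHL41, AT5G59820; r = 0.991), followed by the nudix hydrolase NUDT4 (AT1G18300; 0.987), the ethylene response factor ERF5 (AT5G47230; 0.986), the zinc finger factor ZAT10 (STZ, AT1G27730; 0.984) and the mitochondrial dicarboxylate carrier DIC2 (AT4G24570; 0.984). The RING ubiquitin ligase RDUF1 (AT3G46620; 0.980), the glycosyltransferase-like GATL10 (AT3G28340; 0.979), AT2G01300 (0.979), AT5G17350 (0.978) and the TIR-domain gene AT1G72910 (0.977) completed the 10.

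All 10 had higher means at each later time, as the ranking favours, but they differed in size and in starting level. ZAT12 averaged 120.4 normalized counts at 0 min, 213 after 2 min, 481.6 after 4 min and 651.8 after 8 min, with log2 changes of 0.80, 1.95 and 2.43. ZAT10 had log2 changes of 1.10, 2.64 and 2.96, against 0.99, 2.26 and 2.98 for IDL7, from a mean of 210.5 normalized counts at 0 min. DIC2 had the largest log2 change of the 10 at 8 min (3.34), after 0.79 at 2 min and 2.27 at 4 min. NUDT4, RDUF1, GATL10 and AT2G01300 had smaller log2 changes at 8 min, between 1.5 and 1.54. Part of the sequence of AT1G72910 is shared with AT1G72930, so its counts are less certain. AT1G72930 had the higher mean at 0 min, with 140.8 normalized counts against 13.93 for AT1G72910. Its own log2 changes were 0.9, 1.52 and 1.4 at 2, 4 and 8 min (limma adjusted p = 0.221, 0.0068 and 0.00452). How far reads of AT1G72930 enter the count of AT1G72910 was not tested.

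**Figure D5:**
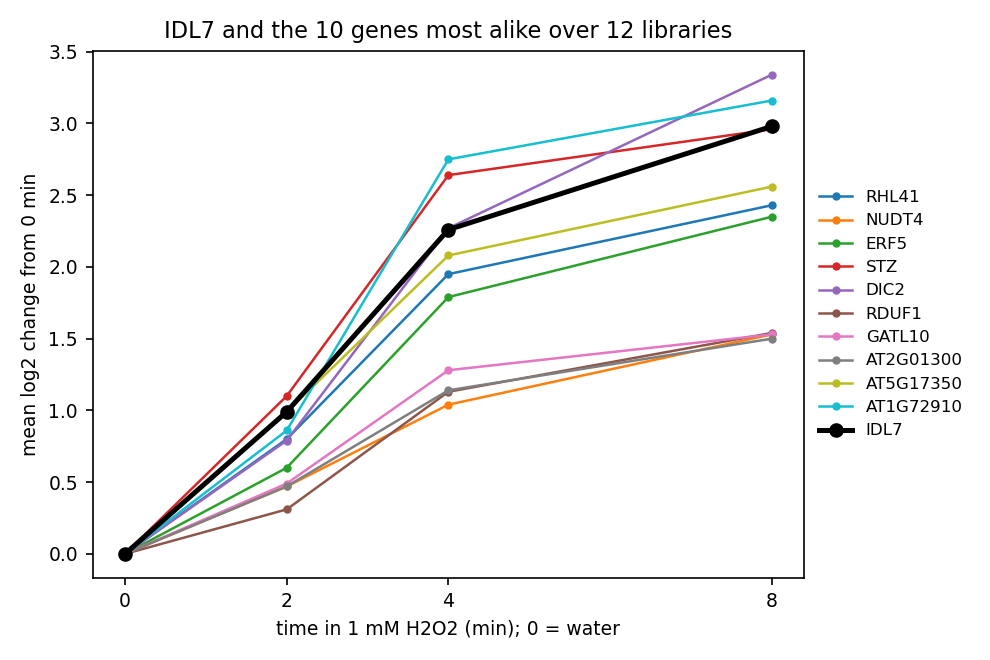
Mean log2 change from 0 min (vertical axis) against the time in 1 mM H2O2 in min (0 is water) for IDL7 (thick black line) and the 10 genes with the highest Pearson correlation with it over 12 libraries. IDL7 ends at 2.98, between ZAT10 (2.96) and AT1G72910 (3.16), and DIC2 ends highest at 3.34.

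The 250 bases before the annotated start of IDL7 (chr3:3420933-3421182, minus strand, TAIR10.1) are printed because known H2O2- and stress-related motifs could be looked for in them. The capitals mark the only match, the core of the abscisic acid response element (ACGTG) read on the other strand.
IDL7 promoter: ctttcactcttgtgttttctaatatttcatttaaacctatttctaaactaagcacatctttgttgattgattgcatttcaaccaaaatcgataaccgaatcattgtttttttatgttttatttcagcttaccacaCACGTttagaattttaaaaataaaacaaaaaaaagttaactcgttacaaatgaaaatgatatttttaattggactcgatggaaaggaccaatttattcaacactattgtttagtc

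Each motif was searched on both strands in the 250 bases before 27443 genes. ACGTG was present in 22.9% of these promoters, in IDL7 and in 2 of the 10 most alike genes. The W-box core TTGAC, present in 44.9% of promoters, was in 9 of the 10 and not in this window of IDL7, and its longer forms TTGACT (19.1%) and TTGACC (12.2%), which overlap the core, were in 6 and 1 of the 10. The rapid stress response element CGCGTT (2.59%) and the GCC box GCCGCC (1.87%) were each in 1 of the 10 and not in this window of IDL7. Letters that are missing from 250 bases say nothing of what binds elsewhere.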

How the data were processed

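RNA of whole seedlings was sequenced single-end from TruSeq Stranded mRNA libraries, which keep the strand of each read. The authors aligned the reads to TAIR10 with STAR 2.4.0.1 after FastQC 0.11.7 and deposited 1 table of normalized counts, the signal that DESeq2 1.20.0 gives when reads are divided by a size factor. The counting program and its use of strand are not given in the sources used here. Dividing each library by its smallest step recovered whole reads for 100% of the values (tolerance 1e-06), which gave the depth of each library and allowed count tests.

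The members and gene lists were chosen with earlier results of these data known. The main test was limma 3.58.1 (trend, R 4.3.3) on log2(normalized count + 1) in 1 fit of 12 libraries, over the 19485 of 20972 genes with a mean of at least 10, with a Benjamini-Hochberg correction run separately for every time point and 0.05 as the threshold. The study's methods used DESeq2, which was run as an alternative (1.42.0) with edgeR 4.0.16 on the recovered reads, because the deposited values are normalized. Other alternatives were pseudocounts of 0.1 and 5, no filter on low genes or a higher one (mean of 50), normalization by quantiles, a replicate block, separate fits and the omission of each library in turn, and, chosen after seeing the data, the omission of both libraries at the extremes of CRA1. The text names every listed member, the list genes past the threshold, up to 3 others of highest mean and the 10 genes most correlated with IDL7. MKK4, SBT4.12, ADPG2, HSL3, PROPEP3, the other PROPEP genes given beside it, PEPR1, PEPR2, prePIP1 and prePIP3 were named after their values were seen. Locations, sequences and shared 50-base stretches came from the RefSeq annotation of TAIR10.1, and levels per kb used its exonic lengths. The limma fit without a block and the DESeq2 and edgeR fits were tested on simulated data. These simulations were scored only at the last time point, for changes in genes with a mean of at least 50. The replicate block, separate fits, quantile normalization, other pseudocounts and filters and the omission of libraries were not tested in this way.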

Additional observations from a re-analysis of the deposited data

How the results depend on the processing

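No tested member passed under any of the alternatives (IDL7 has no test), and the log2 change of IDL7 ranged from 0.86 to 1.13 at 2 min, from 1.98 to 2.48 at 4 min and from 2.80 to 3.16 at 8 min. SOBIR1 passed at 8 min under all 22 alternatives (adjusted p from 4e-08 to 0.0364). Of the counts of calls, 187 stayed within 1.5 times the main count and 11 did not. The pathway partners called at 2 min numbered 2 with DESeq2 and 2 with separate fits (SBT4.12 and ADPG2), against 0 with limma. Those called at 8 min numbered 3 with DESeq2 (SOBIR1, MPK3 and MKK4), 2 with the replicate block, 3 without the 2 libraries at the extremes of CRA1, and 1 to 2 when single libraries were left out. The other signalling peptides and receptors called at 8 min numbered 1 (PROPEP3) without these libraries. They numbered 0 to 1 when single libraries were left out, and the call came without 8 min replicate 2. Shares of all genes called are given above only for the main limma fit, DESeq2 and edgeR, so the other counts stand without a background. Of the log2 changes of the members and SOBIR1 under the alternatives, 330 were counted as unchanged. The other 9, all of receptors whose changes lay near 0, turned sign. For HAE, HSL1, HSL2 and SOBIR1, unchanged means the same direction and side of the threshold. For IDL7, IDA, IDL2 and IDL3, which have no p in the main fit, it means a shift smaller than the SD between libraries. IDA, IDL2 and IDL3 were refitted only without the filter, which cannot move a log2 change. The filters, the replicate block, separate fits and the omission of a library from another time point also leave a limma log2 change as it was. The 330 therefore include many values that could not move, and their number is no measure of stability. When single libraries were left out, HAE at 2 min ranged from -0.07 to 0.07, HSL1 from -0.12 to 0.01 at 4 min and from -0.08 to 0.00 at 8 min, and HSL2 from -0.01 to 0.11 at 4 min and from -0.19 to 0.07 at 8 min, and edgeR gave 0.00 for HSL2 at 8 min. The cause was not tested.

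The replicate numbers did not pair the libraries, since deviations from the time point means correlated between -0.328 and 0.255 (mean 0.00971) for same-numbered and between -0.345 and 0.465 for other pairs. The replicate block added MPK3 to the partners called at 8 min (adjusted p = 0.0491) and changed no other count of calls by over 1.5 times. Depth limits IDA, IDL2 and IDL3, whose 1 to 14 reads per library leave wide intervals, and the starting level of IDL7.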

Other observations

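The precursors of the PIP peptides, which are related in sequence to the IDA peptides, were at the lower limit of counting. prePIP1 had 7.68, 3.85 and 6.86 normalized counts at 8 min, against 2.94, 2.25 and 0.908 at 0 min, so every 8 min library was above every 0 min library, with 1 to 7 reads behind each value. The same separation was seen for 8.56% of all genes tested at 8 min. That set does not hold prePIP1, and the share among genes this low is not given. prePIP1 was singled out after its values were seen. prePIP3 had 17.6, 5.14 and 9.81 at 8 min, against 6.86, 5.61 and 2.72 at 0 min, and the libraries overlapped. In both genes the lowest 8 min library was replicate 2, which was also the highest in CRA1 and the most deeply sequenced. Both were below the mean required for the test, and whether the CRA1 level or the depth plays a part was not tested.

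HSL3, a receptor kinase related to HAE, had 442, 248 and 364 normalized counts at 8 min, against 286, 276 and 229 at 0 min. Replicate 2 was again the lowest at 8 min, and the other 2 libraries were above all of those at 0 min. The log2 change of HSL3 at that time was 0.38 (limma adjusted p = 0.358), and without 8 min replicate 2 it was 0.61 (adjusted p = 0.0468).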
